A study of Mus musculus with 8 samples.

Results

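Matricellular genes encode secreted proteins that sit in the extracellular matrix without forming its scaffold. The 10 described here are the thrombospondins Thbs1, Thbs2, Thbs3 and Thbs4, the tenascins Tnc and Tnxb, periostin (Postn), Sparc, osteopontin (Spp1) and spondin 2 (Spon2). They were chosen by name, and all 10 were found as single rows among 53921 gene rows of a count table. RNA was sequenced from mouse induced cardiomyocytes, which are fibroblasts pushed towards a heart muscle cell fate by added transcription factors. The shGrhl3 cells carried MGT, which in this field stands for the factors Mef2c, Gata4 and Tbx5, together with a hairpin against Grhl3, a transcription factor best known from epithelia. The shNT cells carried MGT with the hairpin labelled shNT, which is read here as the non-targeting control. Both groups were collected on day 5 and each has 2 RNA-seq libraries, so all cells compared had received the factors and a hairpin. The labels do not give the age or strain of the mice or the number of cultures. The p-values therefore set each group difference only against the scatter of these particular libraries, estimated partly from other genes. That scatter may be technical.

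Matricellular proteins bind cell surface receptors, growth factors, proteases and collagen fibres, and most are present at low levels in the resting adult heart and are made in larger amounts during development and after injury. Thrombospondins act through receptors such as CD36, CD47 and integrins, and thrombospondin 1 can release TGF-beta from its latent form. Tenascin C, periostin and osteopontin are known from wound repair and scar formation in the heart, where activated fibroblasts and, for osteopontin, macrophages make them. SPARC binds collagen and helps it to assemble into fibres, and spondin 2, also called mindin, binds integrins and bacterial surface molecules.

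The stretches before the start sites of 4 members are shown because their values carry the differences described below: Tnc and Tnxb, which were both higher in shGrhl3 cells, Thbs4, which was lower, and Spp1, which had the lowest fold change of the 10. Each is the 250 bases before an annotated start in RefSeq on GRCm38.p6 (the assembly behind mm10), read 5′ to 3′ on the strand of the gene. Capitals mark the letters of the motifs found.
Tnc promoter, chr4:64047016-64047265, minus strand: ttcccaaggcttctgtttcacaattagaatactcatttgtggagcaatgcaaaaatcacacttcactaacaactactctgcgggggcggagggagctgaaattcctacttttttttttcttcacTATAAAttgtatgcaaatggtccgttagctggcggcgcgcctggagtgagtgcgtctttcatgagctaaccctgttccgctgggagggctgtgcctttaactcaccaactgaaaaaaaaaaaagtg
Tnxb promoter, chr17:34670285-34670534, plus strand: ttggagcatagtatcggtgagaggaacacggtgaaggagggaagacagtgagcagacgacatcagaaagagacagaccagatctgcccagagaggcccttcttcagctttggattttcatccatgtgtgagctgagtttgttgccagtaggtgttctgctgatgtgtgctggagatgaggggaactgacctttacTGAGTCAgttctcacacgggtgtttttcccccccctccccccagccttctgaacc
Thbs4 promoter, chr13:92794819-92795068, minus strand: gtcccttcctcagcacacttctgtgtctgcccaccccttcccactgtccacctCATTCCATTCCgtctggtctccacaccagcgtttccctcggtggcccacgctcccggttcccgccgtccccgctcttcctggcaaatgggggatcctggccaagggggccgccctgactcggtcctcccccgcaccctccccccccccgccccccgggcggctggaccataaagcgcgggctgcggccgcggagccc
Spp1 promoter, chr5:104434861-104435110, plus strand: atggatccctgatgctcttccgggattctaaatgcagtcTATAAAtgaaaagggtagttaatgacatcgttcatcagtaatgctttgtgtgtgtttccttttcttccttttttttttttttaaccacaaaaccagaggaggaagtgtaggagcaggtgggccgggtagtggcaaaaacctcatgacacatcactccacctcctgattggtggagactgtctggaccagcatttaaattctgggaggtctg
Searched on both strands were AACCGGTT and its core ACCGGT for Grainyhead-like factors, TGANTCA for AP-1, GTCTAGAC for SMAD proteins, GGAATG for TEAD factors, AGATAA for GATA factors, AGGTGTNA for T-box factors, the MEF2 motif and TATAAA. The Tnxb stretch lies inside the annotated Tnxb gene (34660453 to 34719815), so the start that follows it is internal and not the 5′ end of the gene. It holds TGAGTCA 55 bases before that internal start, and TGANTCA occurs in 6.75% of 32851 annotated promoters cut to the same length. In the Thbs4 stretch GGAATG lies at 2 places on the reverse strand, 197 and 192 bases before the start, in copies that share a base, and 12.6% of all promoters hold it. The letters TATAAA stand 126 bases before the start in Tnc and 211 bases before it in Spp1, and occur in 12.4% of all promoters. Of the 10 members, 8 matched this table with 11 start sites in all, and Thbs1 and Spon2 had no entry. Neither AACCGGTT (0.116% of all promoters) nor ACCGGT (1.86%) lies in any of the 11 stretches, which says nothing about sites elsewhere or about the factor.

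Library totals ran from 18608893 to 19822541 counts in shGrhl3 cells and from 16102839 to 19256438 in shNT cells. Grhl3 itself had 11 and 19 counts in the shGrhl3 libraries, against 31 and 14 in the shNT libraries, with a log2 fold change of -0.69 (SE 0.56) that missed the threshold (adjusted p = 0.362 in edgeR's quasi-likelihood test). The groups overlap for Grhl3, so these counts do not show a knockdown. The 10 cardiomyocyte markers and the 10 fibroblast markers listed for this work were detected in every library. Summed cardiomyocyte markers stood at 5754 and 5459 CPM (counts scaled to a common library size with TMM factors) in shGrhl3 cells, against 4430.2 and 4523 CPM in shNT cells, with Myh6, Tnni3, Actc1, Myl7 and Mb higher and Nppa lower. Tnnt2, which did not pass, made up most of this sum. The other 9 markers summed to 2443 and 2354 CPM in shGrhl3 cells, against 1295 and 1229 CPM in shNT cells. Summed fibroblast markers stood at 9464 and 10391 CPM in shGrhl3 cells, against 8138 and 8398 CPM in shNT cells, with Col1a1 and Pdpn higher and Pdgfra, Tcf21, Dcn, Ddr2 and Dpt lower. Col1a1 sets the direction of this sum: the other 9 markers summed to 3796 and 3892 CPM in shGrhl3 cells, against 3896 and 4239 CPM in shNT cells, and the median log2 fold change of the 10 was -0.39. Endothelial markers summed to between 364 and 393 CPM in shGrhl3 cells, against 452 to 477 CPM in shNT cells. Of 10 tested, Tek and Eng were lower (20%, beside 17.9% of all genes). Eng made up most of this sum, and the other 9 markers summed to 52.0 and 45.8 CPM in shGrhl3 cells, against 65.2 and 59.5 CPM in shNT cells. Smooth muscle and pericyte markers summed to between 2683 and 2864 CPM in shGrhl3 cells, against 3141 to 3222 CPM in shNT cells, with Cspg4 higher and Tagln, Cnn1 and Pdgfrb lower of 10 tested. Epithelial markers summed to 18.9 to 25.9 CPM in shGrhl3 cells, against 7.16 to 8.31 CPM in shNT cells. Krt7 and Krt18 were higher of 4 tested, and Epcam had 0 to 2 counts in each library. Without Krt7 the epithelial sum was 10.6 and 6.37 CPM in shGrhl3 cells, against 4.76 and 4.79 CPM in shNT cells. Beside the calls in these marker lists, 17.1% of all genes tested were called higher and 17.9% lower. The marker lists were chosen with earlier results of these data known, so such shares are descriptive. The calls of Nppa, Tek, Eng, Cnn1, Pdgfrb and Krt18 were each lost without at least 1 of the libraries, at adjusted p-values of 0.0542 to 0.219, and those of Nppa, Tek, Cnn1 and Krt18 also with DESeq2 (0.0522 to 0.0839). The ribosomal RNA gene Rn18s stood at 948 and 1550.4 CPM in shGrhl3 cells, against 5763 and 20293 CPM in shNT cells, and with its row left out the same 4 members passed.

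Of the 10 matricellular genes, 3 were higher in shGrhl3 cells, 1 was lower and 6 did not pass an adjusted p of 0.05. Spon2, Tnc and Tnxb were higher and Thbs4 was lower. Among all 15324 genes tested, 17.1% were called higher and 17.9% lower, 35.0% in all, so a call on 4 of 10 is near the background. Spon2 alone also passed a 2-fold difference upwards, which 3.29% of all genes did, and 0 of the 10 passed with a 2-fold difference downwards, which 4.18% of all genes did. The libraries of the groups did not overlap for 7 members, 3 higher and 4 lower in shGrhl3 cells. Over all genes 66.5% did not overlap, 32.8% higher and 33.7% lower. The median log2 fold change of the 10 was -0.10, beside -0.01 over all genes tested.

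**Figure D1:**
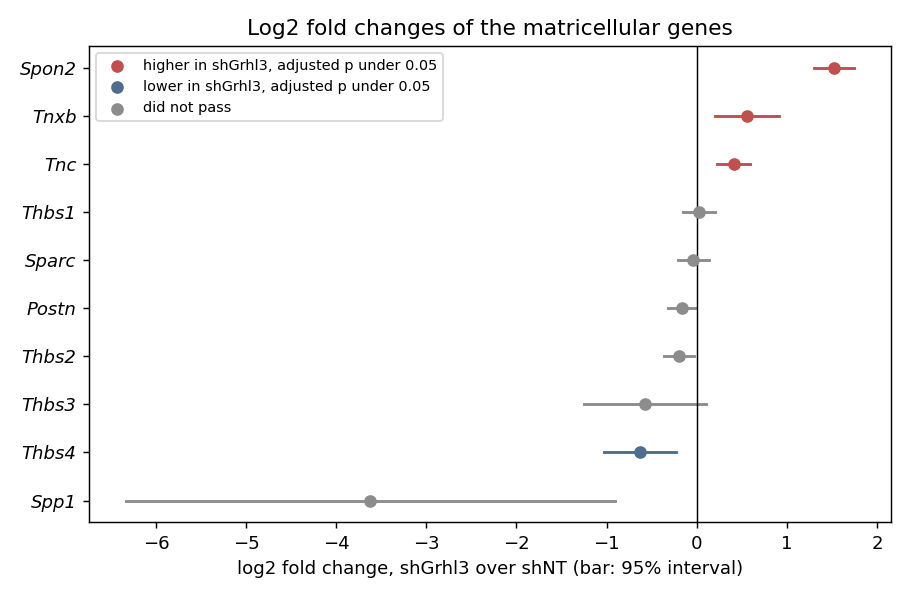
Log2 fold changes (shGrhl3 over shNT) of the 10 matricellular genes with their 95% intervals from edgeR's quasi-likelihood test, ordered by value. Spon2 lies highest at 1.52, Tnxb and Tnc are above 0, Thbs4 is below 0, and Spp1 lies lowest at -3.62 with the widest interval.

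**Figure D2:**
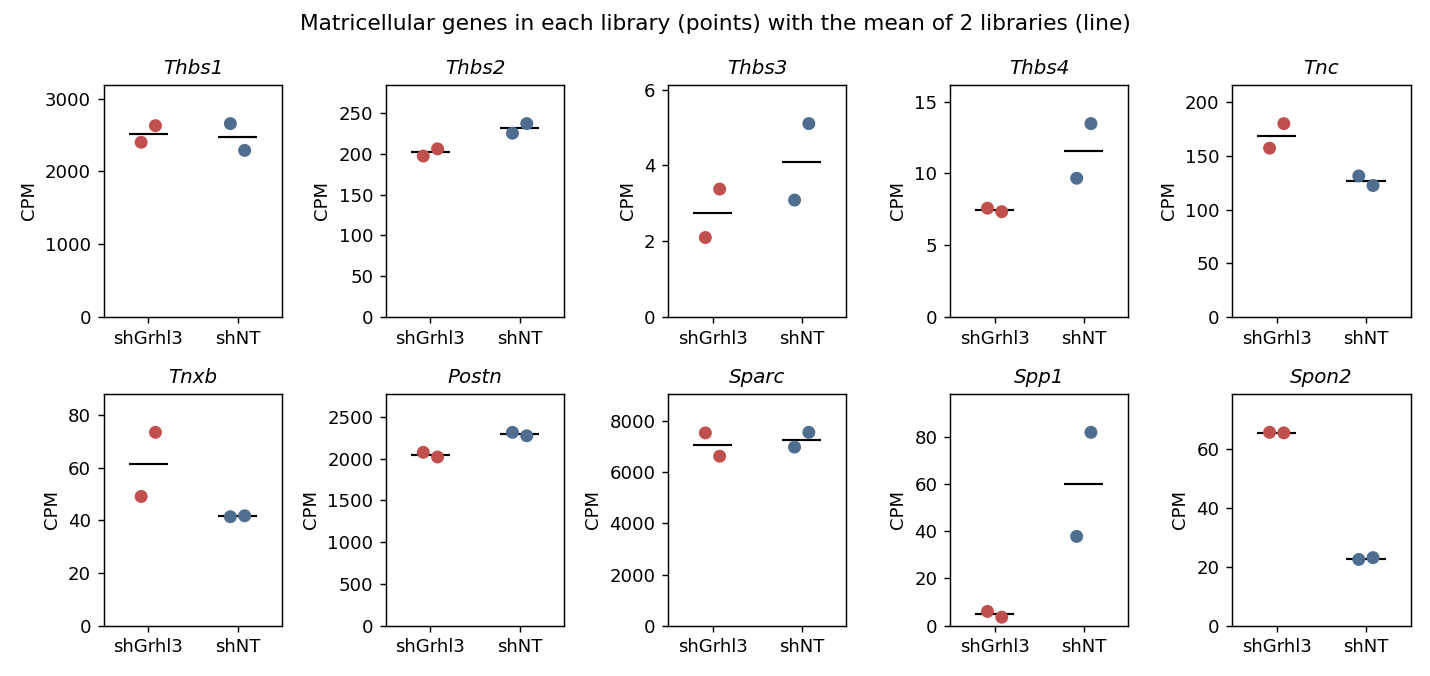
CPM of each matricellular gene in the 2 shGrhl3 libraries (left) and the 2 shNT libraries (right) on axes that start at 0, with a line at the group mean. The points of Spon2 sit at 65.5 and 65.3 against 22.4 and 23.0 CPM, those of Thbs1, Thbs3 and Sparc overlap between groups, and those of Spp1 are far apart within shNT.

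Spon2, on chromosome 5 (33213518 to 33218254, GRCm38.p6, as all gene positions here), encodes a secreted spondin that binds integrins and acts as a pattern recognition molecule of innate immunity. It had 1313 and 1220 counts in the shGrhl3 libraries, against 429 and 366 in the shNT libraries. After scaling these were 65.5 and 65.3 CPM in shGrhl3 cells and 22.4 and 23.0 CPM in shNT cells, so the libraries of each group lie close together and the groups lie far apart. Its mean was 65.4 ± 0.125 CPM in shGrhl3 cells and 22.7 ± 0.446 CPM in shNT cells (SD, n = 2 each). Spon2 rose 2.88-fold, which is 1.52 on the log2 scale (SE 0.11, 95% interval 1.30 to 1.75; adjusted p = 1.99e-10 in edgeR's quasi-likelihood test). Ordered by p-value, Spon2 was number 66 of the 15324 genes, and 270 genes had a higher fold change.

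The tenascins are large matrix glycoproteins that modulate cell adhesion. Tnc (chromosome 4, 63959785 to 64047015) encodes tenascin C, which loosens the contact of cells with fibronectin and appears in tissue under repair. Its counts were 3153 and 3365 in the shGrhl3 libraries, against 2514 and 1944 in the shNT libraries. In CPM these were 157 and 180.1 in shGrhl3 cells and 131 and 122 in shNT cells, with no overlap. Tnc rose in shGrhl3 cells by a log2 fold change of 0.41 (SE 0.09, 95% interval 0.22 to 0.60; adjusted p = 0.000981), which is 32.9% on the linear scale. The long noncoding gene 8030451A03Rik lies over 62285 bases of the Tnc gene. Its own row held 17 and 25 counts in shGrhl3 cells and 10 and 3 in shNT cells, and without a stated strand setting reads of the overlapping genes cannot be told apart.

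Tnxb (chromosome 17, 34660453 to 34719815) encodes tenascin X, which is needed for normal collagen fibril spacing in connective tissue. It had 984 and 1372 counts in the shGrhl3 libraries, against 792 and 663 in the shNT libraries. On the scaled level this was 49.1 and 73.4 CPM in shGrhl3 cells and 41.4 and 41.7 CPM in shNT cells. Both shGrhl3 libraries are above both shNT libraries, but shGrhl3 library 2 lies well above shGrhl3 library 1. Tnxb rose by a log2 fold change of 0.56 (SE 0.16, 95% interval 0.20 to 0.91; adjusted p = 0.0198). Without shGrhl3 replicate 2 the log2 fold change was 0.26 and the call was lost (adjusted p = 0.102). The 3′ end of Tnxb shares 385 bases with the pseudogene Cyp21a2-ps, whose row held 1 count over the 4 libraries.

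Thrombospondins fall into trimeric members, Thbs1 and Thbs2, which inhibit the growth of blood vessels, and pentameric members, Thbs3 and Thbs4, which lack the domain that does so. Thbs1 (chromosome 2, 118111876 to 118127133) had 48156 and 49142 counts in the shGrhl3 libraries, against 50881 and 36367 in the shNT libraries. Its level was 2402 and 2631 CPM in shGrhl3 cells and 2659 and 2290.0 CPM in shNT cells. The groups overlap, and the log2 fold change of 0.02 did not pass (SE 0.08, 95% interval -0.15 to 0.20; adjusted p = 0.862). Its sign changed under 2 of 14 alternative settings. Thbs2 (chromosome 17, 14665500 to 14694262) stood at 197 and 206 CPM in shGrhl3 cells and 225 and 237 CPM in shNT cells. Both shGrhl3 libraries lay below both shNT libraries, but the log2 fold change of -0.20 did not pass (SE 0.08, 95% interval -0.37 to -0.03; adjusted p = 0.0653).

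The pentameric thrombospondins were at low counts. Thbs4 (chromosome 13, 92751586 to 92794818) encodes a thrombospondin of tendon, muscle and the stressed heart. It had 152 and 137 counts in the shGrhl3 libraries, against 185 and 214 in the shNT libraries. Its level of 7.58 and 7.33 CPM in shGrhl3 cells lay below the 9.67 and 13.5 CPM of shNT cells, where the libraries were farther apart. Thbs4 fell by 0.63 on the log2 scale in shGrhl3 cells (SE 0.19, 95% interval -1.03 to -0.23; adjusted p = 0.0140). The call was lost without shNT replicate 2, where the log2 fold change was -0.37 (adjusted p = 0.284), and with DESeq2 (-0.62, adjusted p = 0.0509). Thbs3 (chromosome 3, 89215180 to 89226841), whose product is known from skeletal growth, had 42 and 63 counts in the shGrhl3 libraries, against 59 and 81 in the shNT libraries. These are 2.09 and 3.37 CPM in shGrhl3 cells and 3.08 and 5.10 CPM in shNT cells, which overlap. Its log2 fold change of -0.57 did not pass (SE 0.33, 95% interval -1.25 to 0.10; adjusted p = 0.185), and at this depth a fall of 1.25 and a small rise both lie within the interval. The long noncoding gene LOC115489723 overlaps 1308 bases of Thbs3, and with the strand setting unstated their reads cannot be told apart.

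Periostin and SPARC took a sizeable share of each library. Postn (chromosome 3, 54359267 to 54391041), a marker of activated fibroblasts whose product binds integrins and collagen, made up 0.210% and 0.203% of all counts in the shGrhl3 libraries, against 0.230% and 0.224% in the shNT libraries. It stood at 2075 and 2019 CPM in shGrhl3 cells and 2315 and 2273 CPM in shNT cells. The groups do not overlap, yet the difference was small and did not pass (log2 fold change -0.16, SE 0.08, 95% interval -0.32 to -0.01; adjusted p = 0.101). The long noncoding gene Gm31095 lies over 1410 bases of the Postn gene, and reads there cannot be told apart either. Sparc (chromosome 11, 55394159 to 55420080) made up 0.762% and 0.665% of counts in the shGrhl3 libraries, against 0.694% and 0.745% in the shNT libraries. It stood at 7536 and 6625 CPM in shGrhl3 cells and 6982 and 7559 CPM in shNT cells. The groups overlap, at a log2 fold change of -0.04 (SE 0.08, 95% interval -0.21 to 0.13; adjusted p = 0.764), with a sign that changed under 2 of 14 alternative settings. For Sparc, Postn, Thbs1 and Thbs2, the intervals reach no further than a fall of 0.37 and a rise of 0.20 on the log2 scale.

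Spp1 (chromosome 5, 104435111 to 104441053) encodes osteopontin, a phosphorylated glycoprotein that binds integrins and CD44 and is made by macrophages, bone cells and activated fibroblasts. It had 121 and 67 counts in the shGrhl3 libraries, against 724 and 1301 in the shNT libraries. On the scaled level this was 6.03 and 3.59 CPM in shGrhl3 cells and 37.8 and 81.9 CPM in shNT cells. Both shGrhl3 libraries lay far below both shNT libraries, and the shNT libraries also differed from each other. On the log2 scale the fold change of -3.62 had an SE of 0.71 and a 95% interval of -6.34 to -0.91, and it did not pass (unadjusted p = 0.0274, adjusted p = 0.0712 in edgeR's quasi-likelihood test). Only 20 of the 15324 genes had a lower fold change. Spp1 passed in 4 of 14 alternative settings: with DESeq2 (adjusted p = 2.05e-07), with no robust estimate of the spread (3.53e-09), without shNT replicate 1 (log2 fold change -4.08, adjusted p = 9.85e-127) and without shNT replicate 2 (-2.97, 1.57e-52). The first uses another model, the second does not let Spp1 keep its own wide spread, and the last 2 leave a single shNT library, so that the spread between shNT libraries no longer enters. Adjusted p-values over all alternatives reached 0.397.

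Markers of macrophages and other leukocytes moved with Spp1. Of 20 listed markers 16 were tested. Of these, 13 were lower in shGrhl3 cells (81.25%, beside 17.9% of all genes), 1 was higher (6.25%, beside 17.1%) and 2 did not pass. The list was chosen with earlier results of these data known, so these shares are descriptive. The median log2 fold change was -2.63. With a minimum count of 50 for testing, 11 were called lower. A minimum has to be reached in only 2 libraries, so a marker high in shNT cells alone is still tested. With the minimum of 50 this was so for Cybb, with 29 and 32 counts in shGrhl3 cells and 282 and 285 in shNT cells. With the minimum of 10 it was so for Itgam (8 and 7 counts against 36 and 50). Both the 13 and the 11 include such markers. Some markers were at low counts, such as Fcer1g with 3 and 12 counts in the shGrhl3 libraries. The 20 markers summed to 161 and 129 CPM in shGrhl3 cells, against 702 and 963 CPM in shNT cells. Ctss, a lysosomal protease, averaged 10.1 ± 1.14 CPM in shGrhl3 cells and 94.7 ± 13.1 CPM in shNT cells (SD, n = 2 each). Cd68 averaged 6.05 ± 0.537 and 33.7 ± 6.73 CPM, Mpeg1 7.69 ± 0.0534 and 72.9 ± 17.7 CPM, and Cybb 1.58 ± 0.189 and 16.3 ± 2.27 CPM, in shGrhl3 and in shNT cells. The shNT library with more Spp1 also had more Ctss, Cd68, Mpeg1 and Cybb. It had a little less Ptprc, less Fcer1g (2.08 against 2.77 CPM) and Mrc1 (0.756 against 1.36 CPM), and nearly the same Csf1r. The ribosomal RNA gene Rn18s was higher in that library too (20293 against 5763 CPM). Ptprc, which encodes the pan-leukocyte protein CD45, stood at 0.948 and 1.18 CPM in shGrhl3 cells and 7.26 and 6.36 CPM in shNT cells. Spi1 and Mrc1 did not pass (log2 fold changes -0.82 and -0.24). Of the complement genes, C1qb and C1qc had 0 counts in both shGrhl3 libraries, and these were too low to test. The exception was Csf1r, the receptor for macrophage colony-stimulating factor, at 18.6 and 17.1 CPM in shGrhl3 cells and 7.26 and 7.24 CPM in shNT cells. Relative to Lyz2, the macrophage lysozyme, Spp1 stood at 5.94% and 4.73% of its counts in shGrhl3 cells, against 8.33% and 12.7% in shNT cells. The part of these cells in the Spp1 result was not tested, and in bulk RNA fewer cells of a type and less RNA per cell cannot be told apart.

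**Figure D3:**
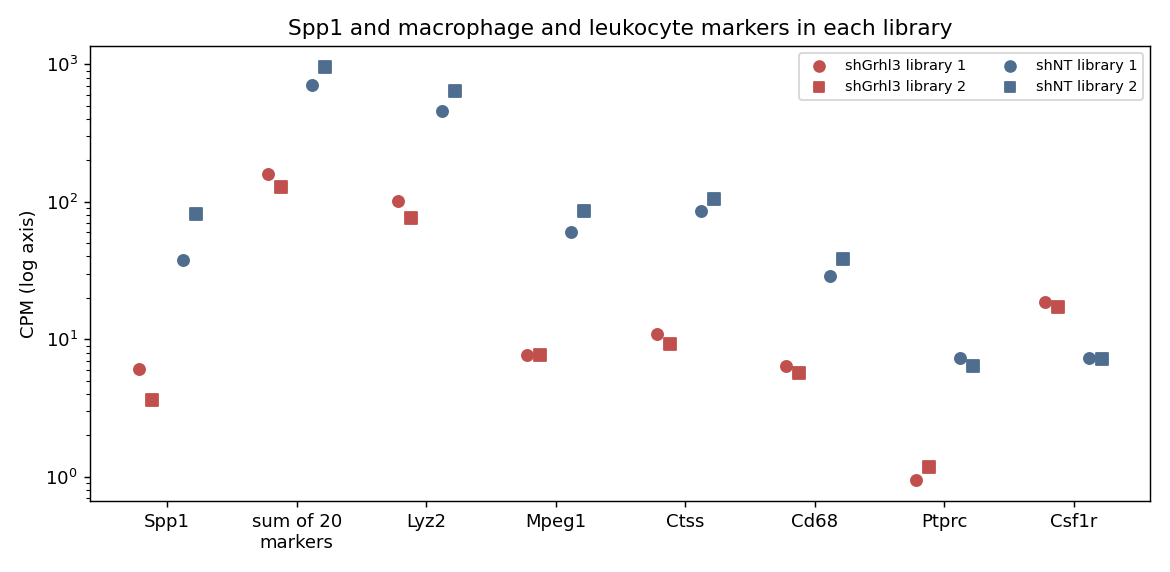
Spp1, the sum of 20 macrophage and leukocyte markers and 6 of these markers in each library (CPM, log axis), with shGrhl3 libraries left of shNT libraries. Spp1 and the marker sum are lower in both shGrhl3 libraries, and Csf1r is higher.

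Ratios of members within a library do not depend on how libraries are scaled. Tnc counts were 7.58% and 8.92% of Postn counts in shGrhl3 cells, against 5.68% and 5.38% in shNT cells. Spon2 counts were 0.869% and 0.986% of Sparc counts in shGrhl3 cells, against 0.321% and 0.305% in shNT cells. For both pairs the shGrhl3 ratios lay above the shNT ratios. Tnc and Spon2 had already been called higher, so these ratios restate their calls without scaling and are not separate support. Thbs1 counts were 1217% and 1276% of Thbs2 counts in shGrhl3 cells, against 1180% and 966% in shNT cells. These do not overlap either, though neither gene passed. Among single genes, 66.5% of those tested did not overlap. Postn counts were 27.5% and 30.5% of Sparc counts in shGrhl3 cells, against 33.2% and 30.1% in shNT cells, which overlap. Likewise Tnxb counts were 31.2% and 40.8% of Tnc counts in shGrhl3 cells, against 31.5% and 34.1% in shNT cells. The summed level of all 10 members was 12498 and 11815 CPM in shGrhl3 cells, against 12426 and 12647 CPM in shNT cells, which also overlap.

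The genes nearest in pattern over the 4 libraries were sought for the 3 members with the lowest p-values, by the distance between log2 CPM values centred on each gene's mean. Nearest to Spon2 were Thbd, which encodes thrombomodulin, at a distance of 0.0554, and Eno3, the muscle enolase, at 0.0846. Thbd stood at 64.7 and 61.2 CPM in shGrhl3 cells and 21.4 and 22.2 CPM in shNT cells. Nearest to Tnc were Cep41, a centrosomal gene whose own difference did not pass (adjusted p = 0.0919), at 0.00480, and Igf2bp1, which encodes an RNA-binding protein, at 0.0168. Nearest to Thbs4 were Ogfrl1 at 0.0230 and Mfap4, a microfibril-associated matrix gene, at 0.0498. With 4 libraries in 2 groups such likeness is a description of these libraries.

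Other matricellular and related genes were split between directions. Like the marker lists, this list and the lists below were chosen with earlier results of these data known, so their shares are descriptive. Of 21 listed, 15 were tested, and 4 were higher (26.7%, beside 17.1% of all genes), 4 lower (26.7%, beside 17.9%) and 7 did not pass, with a median log2 fold change of -0.13. Smoc2, a relative of SPARC, rose to 311 ± 3.34 CPM in shGrhl3 cells, against 179 ± 16.5 CPM in shNT cells (SD, n = 2 each; log2 fold change 0.80, adjusted p = 1.34e-07). Fbln5, which helps elastic fibres to assemble, rose to 258 ± 9.78 CPM in shGrhl3 cells, against 196 ± 0.167 CPM in shNT cells. Smoc1 and Fbln2 were also higher (log2 fold changes 1.59 and 0.23), but lost their calls when any of 3 libraries was left out, at adjusted p-values of 0.0734 to 0.234 for Smoc1 (shGrhl3 replicate 1, shNT replicates 1 and 2) and 0.0663 to 0.217 for Fbln2 (shGrhl3 replicate 2, shNT replicates 1 and 2). With DESeq2 the Smoc1 call was lost too (adjusted p = 0.0675). Ccn4, a Wnt-induced matricellular gene, fell to 444 ± 2.51 CPM in shGrhl3 cells, against 723 ± 0.280 CPM in shNT cells (log2 fold change -0.70, adjusted p = 1.97e-07). Fstl1, which carries a SPARC-like domain, fell to 1429 ± 62.1 CPM in shGrhl3 cells, against 2089 ± 4.76 CPM in shNT cells. Sparcl1, the closest relative of Sparc, and Tgfbi, a relative of Postn, were also lower (log2 fold changes -0.88 and -0.63), and the Tgfbi call was lost without each of the 4 libraries (adjusted p = 0.0775 to 0.198), with no expression filter (0.0567) and with DESeq2 (0.120). Ccn1 and Ccn2, which are known targets of mechanical and YAP signalling, did not pass, with log2 fold changes of -0.07 and 0.07. The thrombospondin Comp and the tenascins Tnr and Tnn were too low to test. Without shNT replicate 1, 2 genes of the list were higher, near the share over all genes.

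Among receptors and uptake genes for these proteins, the thrombospondin receptor Cd36 and several integrin chains were lower. Of 25 listed, 23 were tested. Of these, 2 were higher (8.70%, beside 17.1% of all genes), 11 were lower (47.8%, beside 17.9%) and 10 did not pass. The median log2 fold change was -0.26. Cd36, a receptor for thrombospondin 1 and for fatty acids that macrophages also carry, fell to 2.03 ± 0.519 CPM in shGrhl3 cells, against 72.4 ± 17.8 CPM in shNT cells, beside the lower leukocyte markers. Itga8 and Itgb8, chains of integrins that bind the RGD sequence, fell to 75.0 ± 2.80 and 11.2 ± 1.73 CPM in shGrhl3 cells, against 159 ± 9.85 and 31.0 ± 3.11 CPM in shNT cells. Itgb5, which pairs with the alpha V chain to bind periostin and osteopontin, fell to 502 ± 21.0 CPM in shGrhl3 cells, against 762 ± 37.0 CPM in shNT cells (SD, n = 2 each). Cd47, Itgb3 and Ddr2, which is also in the fibroblast list, were lower too. So were Cd44, Calr, Stab1 and Egfr, whose calls were lost without at least 1 library. These were Calr without shNT replicate 2 (adjusted p = 0.0915), Egfr without shGrhl3 replicate 1 (0.0543), Cd44 when shGrhl3 replicate 2 or either shNT library was left out (0.0501 to 0.159) and Stab1 when shNT replicate 2 or either shGrhl3 library was left out (0.0535 to 0.104) and also with DESeq2 (0.0615). Itga6, a laminin-binding chain, and Sdc4, a heparan sulfate proteoglycan that binds tenascin and thrombospondin, were higher, with log2 fold changes of 1.08 and 0.58. Itgav and Itgb1, the partner chains, did not pass (log2 fold changes -0.02 and -0.01). The number of genes of this list called higher changed when shGrhl3 replicate 1 was left out.

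Among enzymes that modify or cleave these proteins, Tgm2, Fam20c and Plau rose and Ctsb fell. Of 20 listed, 18 were tested. Of these, 8 were higher (44.4%, beside 17.1% of all genes), 3 were lower (16.7%, beside 17.9%) and 7 did not pass. The median log2 fold change was 0.20. Tgm2, a transglutaminase that crosslinks osteopontin and fibronectin, rose to 188 ± 3.63 CPM in shGrhl3 cells, against 53.8 ± 1.61 CPM in shNT cells (SD, n = 2 each; log2 fold change 1.81, adjusted p = 7.38e-13). Fam20c, the kinase that phosphorylates osteopontin and other secreted proteins, rose to 136 ± 2.51 CPM in shGrhl3 cells, against 64.9 ± 4.98 CPM in shNT cells. Plau, the urokinase-type plasminogen activator, rose to 50.9 ± 0.830 CPM in shGrhl3 cells, against 23.5 ± 1.03 CPM in shNT cells. Pofut2 and B3glct, which add sugars to thrombospondin repeats, were both higher, with log2 fold changes of 0.63 and 0.28, and the B3glct call was lost without each of the 4 libraries (adjusted p = 0.0619 to 0.206), with no expression filter (0.0587) and with DESeq2 (0.0962). Mmp14, Adamts1 and Ctsk were the other higher genes, and lost their calls without shNT replicate 2 (Mmp14 and Adamts1, adjusted p = 0.103 and 0.0783) or shNT replicate 1 (Ctsk, 0.0592). Ctsb, a lysosomal cathepsin, fell to 561 ± 35.2 CPM in shGrhl3 cells, against 1043 ± 126 CPM in shNT cells, and Mmp2 and Mmp3 were also lower. Bmp1, a protease that acts together with periostin, had a log2 fold change of 0.00 and did not pass. Mmp12, a macrophage elastase, stood at 3.04 and 0.428 CPM in shGrhl3 cells and 26.3 and 50.4 CPM in shNT cells and did not pass (adjusted p = 0.0879). Fewer genes of this list were called higher when shNT replicate 2 was left out.

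Of TGF-beta signalling genes, whose pathway is a known inducer of Postn, Tnc and Thbs1, the ligand Tgfb2 rose and the receptor Tgfbr2 fell. Of 18 tested, 1 was higher (5.56%, beside 17.1% of all genes), 8 were lower (44.4%, beside 17.9%) and 9 did not pass, with a median log2 fold change of -0.19. The ligand gene Tgfb2 rose to 466 ± 17.7 CPM in shGrhl3 cells, against 302 ± 19.0 CPM in shNT cells (SD, n = 2 each). The receptor gene Tgfbr2 fell to 125 and 119 CPM in the shGrhl3 libraries, against 196 and 224 CPM in the shNT libraries. Pmepa1, a feedback inhibitor of the pathway, fell to 147 ± 12.7 CPM in shGrhl3 cells, against 251 ± 37.9 CPM in shNT cells, and Ltbp2, a matrix protein related to the latent TGF-beta binders, to 85.6 ± 0.427 CPM, against 131 ± 1.26 CPM. Of the 8 lower calls, that of Smad3 was lost without shNT replicate 2 (adjusted p = 0.0545) and that of Smad4 without shNT replicate 1 (0.0669). The number called higher in this list changed when shGrhl3 replicate 2 was left out.

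Transcription factors known to act on matricellular genes also moved in both directions. All 21 listed were tested, with 3 higher (14.3%, beside 17.1% of all genes), 7 lower (33.3%, beside 17.9%) and 11 that did not pass, and a median log2 fold change of -0.17. Fosl2, a subunit of AP-1, fell to 141 ± 8.96 CPM in shGrhl3 cells, against 218 ± 12.3 CPM in shNT cells, and Prrx1, a mesenchymal homeobox factor that acts on Tnc, to 132 ± 10.7 CPM, against 196 ± 15.2 CPM. Jun was lower too, as were Fos, Runx1, Mrtfa and Yap1, whose calls were lost without shGrhl3 replicate 1 (Fos, Runx1 and Mrtfa), without shNT replicate 1 (Runx1, Mrtfa and Yap1) or without shNT replicate 2 (Fos, Runx1 and Mrtfa), and for Runx1 also without shGrhl3 replicate 2, at adjusted p-values of 0.0571 to 0.294. The Runx1 call was also lost with scaling by library size alone (adjusted p = 0.0550), with no expression filter (0.0609) and with DESeq2 (0.128). Atf6, a stress factor of the endoplasmic reticulum that thrombospondin 4 binds, rose to 161 ± 7.69 CPM in shGrhl3 cells, against 115 ± 10.6 CPM in shNT cells (SD, n = 2 each). Klf4 and the tendon factor Scx were higher as well, with log2 fold changes of 0.50 and 0.98. The count of lower genes was 4 of 21, near the share over all genes, without each of shGrhl3 replicate 1, shNT replicate 1 and shNT replicate 2.

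**Figure D4:**
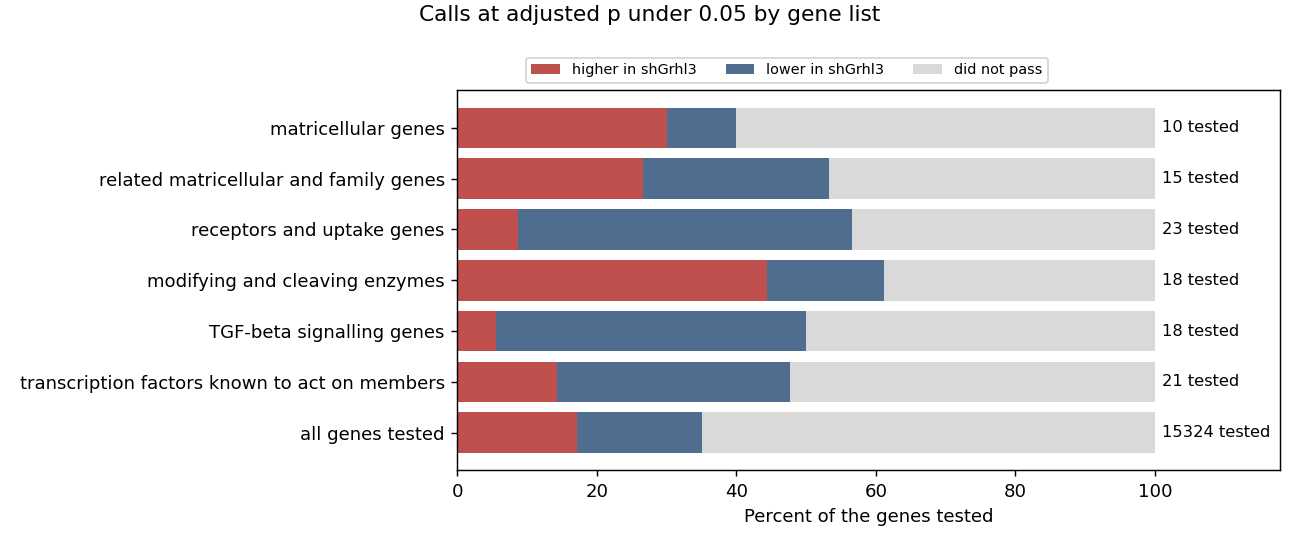
Percent of tested genes called higher or lower in shGrhl3 cells at an adjusted p of 0.05, for the 10 matricellular genes, 5 related gene lists and all 15324 genes tested. The lower share is 47.8% among receptors and uptake genes and 44.4% among TGF-beta signalling genes, against 17.9% of all genes. The higher share is 44.4% among modifying and cleaving enzymes, against 17.1% of all genes. The lists were chosen with earlier results of these data known, so the shares only describe them.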

How the data were processed

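RNA-seq counts of 2 shGrhl3 and 2 shNT libraries were analysed, and the 4 H3K27ac CUT&Tag samples were not used here. The authors deposited raw counts per gene as whole numbers, with no normalization found in them. The submitters' processing notes name HISAT2 2.0.1, Bowtie2 2.2.6, cutadapt 1.9.1, ChIPseeker, MACS2 and the build mm10, without saying which served which assay. Not given in the sources used here: the counting program, its annotation and strand setting, and its handling of reads that map to several genes. The columns shGrhl1 and shGrhl2 were read as replicates of shGrhl3, the only hairpin target the labels name. Of 55359 rows, 1438 that name no gene, with 0.00432% to 0.00872% of the counts of a library, were left out.

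Genes were tested with edgeR 4.0.16 (R 4.3.3): filterByExpr with a minimum count of 10, TMM factors, a robust quasi-likelihood fit of the 2 groups without covariates, two-sided, with Benjamini-Hochberg adjustment over all 15324 genes and a threshold of 0.05. CPM uses TMM-scaled library sizes, ± is the SD over 2 libraries, and the SE of a log2 fold change comes from the F statistic. The script was tested on simulated data. Replicate libraries differed by more than sampling noise, with a chi-square per degree of freedom of 8.66 for the shGrhl3 pair and 14.1 for the shNT pair. Alternatives used DESeq2 1.42.0, limma-voom (limma 3.58.1), other scalings and filters, a replicate block, and each library left out. Gene lists were written from textbook knowledge. The members and lists were chosen with earlier results of these data known. Besides the members, up to 4 genes a list with the lowest p-values past the threshold are named by rule. The 2 genes nearest each of 3 members follow a rule too, and names outside these rules were chosen after their values were seen. Levels are not compared between genes, since no transcript lengths were used.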

Additional observations from a re-analysis of the deposited data

How the results depend on the processing

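The calls of Spon2 and Tnc held under all 14 alternatives, with adjusted p-values of at most 1.40e-09 for Spon2 and 0.0281 for Tnc. Tnxb kept its call under 13 of them and Thbs4 under 12, with the losses given above. Postn, Thbs1, Thbs2, Thbs3 and Sparc passed under none. The number of members called higher was 3 in each setting except without shGrhl3 replicate 2, where it was 2. The number called lower was 2 with no robust spread estimate, an alternative chosen after seeing the data, and ranged from 1 to 2 when each library was left out in turn, since Spp1 passed without shNT replicate 1 beside Thbs4 and without shNT replicate 2 in place of it. With DESeq2 the 1 called lower was also Spp1 and not Thbs4. The number of all genes called stayed within 1.5 times that of the reported test in every setting. Under the replicate block, 2364 genes were higher and 2525 lower, and the same numbers of members passed, 3 and 1. The block ended the calls of 4 named genes at nearly the same fold, Tgfbi (adjusted p = 0.0522), Fbln2 (0.0741), B3glct (0.0781) and Runx1 (0.0580). Same-numbered libraries did not deviate together over all genes (correlation -0.06). A pairing that acts on only some genes was not tested. Scaling by library size alone gave 2894 genes higher and 2539 lower, and moved the median log2 fold change of all genes by 0.03. Fits with a library left out assume that the lone library varies like the other group. Depth limits Thbs3, with 42 to 81 counts in a library.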
